A study of Rattus norvegicus with 8 samples.

Results

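Antioxidant and metal-binding genes of rat aortic smooth muscle cells were followed across a knockdown of the long non-coding RNA Giver and a 3 h exposure to angiotensin II (Ang II). The genes are 3 superoxide dismutases (Sod1, Sod2, Sod3), catalase (Cat), 2 glutathione peroxidases (Gpx1, Gpx3) and 2 metallothioneins (Mt1a, Mt2A). They were chosen by name, with earlier results of these data known. Every probe set of the array whose annotation carries exactly 1 of these symbols was taken. Each of the 8 genes had 1 such probe set, so no gene had a second of its own as a check (a probe set shared by Mt1a and other genes is described with Mt1a), and all 8 passed the filter on dim probe sets and stand among 11377 genes tested. Mt1a is listed as Mt1 in the array annotation and in the current rat gene table, which gives Mt1a as an older name of the same gene.

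Superoxide is produced in vascular smooth muscle by NADPH oxidases and by mitochondria. Superoxide dismutases turn it into hydrogen peroxide, Sod1 in the cytosol with copper and zinc, Sod2 in the mitochondrial matrix with manganese, and Sod3 outside the cell, bound to the matrix. Catalase, mostly in peroxisomes, and the selenium enzymes Gpx1 (inside the cell) and Gpx3 (secreted) then remove the peroxide. Metallothioneins are small cysteine-rich proteins that hold zinc and copper and whose genes respond to metals, glucocorticoids and stress. Ang II is known to raise superoxide production in these cells through NADPH oxidase.

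The cells were primary aortic cells of male Sprague-Dawley rats, taken from the thoracic part of the vessel and kept for 2 passages in 10% serum, and the labels name no engineered allele. All were transfected 48 h earlier, with siRNA that targets no gene (siNTC) or with siRNA to rat Giver (siGiver), and then received either 100 nM Ang II or the same volume of phosphate-buffered saline (PBS) for 3 h. This gave 4 groups of 2 arrays, namely siNTC PBS, siNTC Ang II, siGiver PBS and siGiver Ang II. Whether the arrays within a group represent separate cultures is not stated in the labels. P-values rest on the spread between arrays within groups, pooled over the 4 groups and moderated across genes. That spread is possibly a technical spread. The annotation names no probe set for Giver, and the knockdown itself was not checked here.

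Values are log2 probe set signals, which compare arrays for the same gene and not genes with each other. Arrays have no read depth, and 2 arrays per group limit the precision. Pearson correlation between the 2 arrays was 0.998 in each of the 4 groups. All 7 smooth muscle markers passed the filter, and 5 of 5 endothelial and 4 of 4 adipocyte markers on the array lay below it, as did 3 of 7 leukocyte markers (Ptprc, Csf1r and Adgre1). Of the 4 leukocyte markers that passed the filter, Cd14 and Cd68 were lower in siGiver than in siNTC cells under Ang II and Aif1 and Lyz2 did not pass the test. Of the 2 red cell markers on the array, Alas2 lay below the filter, and Hbb passed it and was called in no comparison. The mean log2 level of the 7 smooth muscle markers lay between 10.2 and 10.3 on the siNTC arrays and between 10.5 and 10.6 on the siGiver arrays. In PBS and under Ang II alike, 5 of the 7 were called higher in siGiver cells, where 16.0% and 19.5% of all genes were. Des was lower (-0.39 and -0.42), and Tagln did not pass. The mean of the 4 fibroblast markers lay between 8.11 and 8.16 on the siNTC Ang II arrays and between 8.42 and 8.59 on all others. In bulk RNA, fewer cells of a type and less RNA per cell cannot be told apart, and the part of these markers in the results below was not tested.

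Of the 8 genes, Sod2 and Mt2A rose with Ang II in control cells, and neither passed the test for Ang II in siGiver cells. In siGiver cells Cat fell with Ang II (-0.25 log2), while its difference in siNTC cells (-0.17) and the test between the 2 responses did not pass. Compared with siNTC cells, siGiver cells had less Sod2 and Gpx1 and more Mt1a in PBS, and less Sod2, Mt2A, Gpx1 and Sod1 and more Mt1a under Ang II. Some of these calls were lost in part of the alternative settings described below. They are the Mt2A rise, the Cat fall, Gpx1 in PBS and Sod1 under Ang II. In the 4 pairwise comparisons all differences among the 8 genes were below 1.5-fold, and the largest was that of Sod2 under Ang II.

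**Figure D1:**
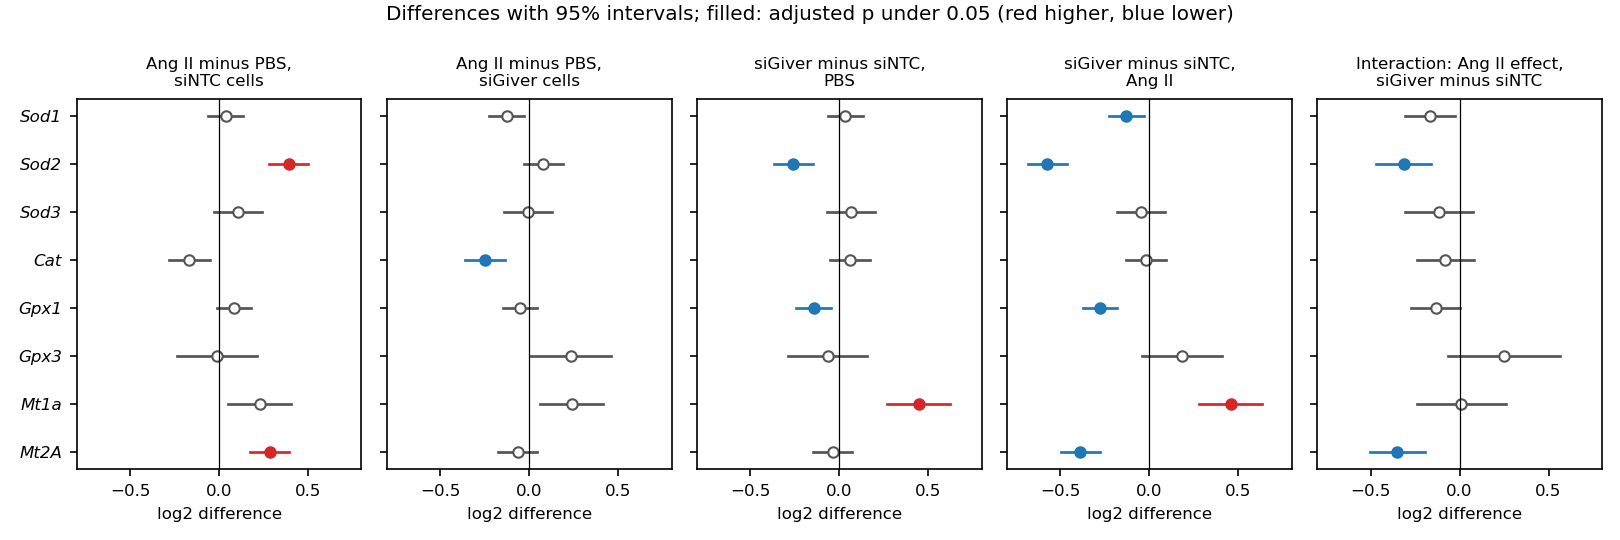
Log2 differences of the 8 genes (rows) in the 5 comparisons (panels), with 95% intervals of the limma fit (2 arrays per group). Filled points passed the adjusted threshold, red for higher and blue for lower. Sod2 stands at 0.39 in the first panel and at -0.57 in the fourth.

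For Ang II in siNTC cells 2 of 8 genes (25%) passed, both higher, where 6.14% of all genes passed in either direction, 3.96% as higher and 2.17% as lower. For Ang II in siGiver cells 1 of 8 (12.5%) passed, as lower, where 16.3% of all genes passed, 9.11% as higher and 7.17% as lower. For siGiver against siNTC in PBS, 3 of 8 (37.5%) passed, 1 higher and 2 lower, a share close to the 35.0% of all genes (16.0% higher and 19.1% lower). Under Ang II 5 of 8 (62.5%) passed, 1 higher and 4 lower, where 44.3% of all genes passed (19.5% higher and 24.8% lower). For the interaction (the Ang II response of siGiver cells less the response of siNTC cells), 2 of 8 (25%) passed, both lower, where 6.21% of all genes passed, 3.35% as higher and 2.87% as lower. The median difference of the 8 genes was 0.0955 log2 for Ang II in siNTC cells (0.00584 over all genes), -0.0286 in siGiver cells (-0.0275), -0.0020 for siGiver in PBS (-0.0047), -0.089 under Ang II (-0.0259) and -0.124 for the interaction (-0.0217).

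Sod2, the mitochondrial manganese enzyme, had the widest spread of the 3 dismutases. Its log2 values were 11.08 and 11.15 on the siNTC PBS arrays, 11.50 and 11.52 with Ang II, 10.83 and 10.88 on the siGiver PBS arrays, and 10.92 and 10.94 on the siGiver Ang II arrays. The 4 groups did not overlap, and siNTC cells stood above siGiver cells with and without the hormone. The 2 groups compared were also apart in 52.7% of all genes for Ang II in siNTC cells, 62.3% in siGiver cells, 67.1% between the siRNA arms in PBS and 72.4% under Ang II, so separation of 2 arrays from 2 is common here.

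In siNTC cells Ang II raised Sod2 by 0.39 ± 0.047 log2 (± SE of the fit, n = 2 arrays a group), which is 1.31-fold, with an adjusted p of 0.00407 in limma. In siGiver cells the difference was 0.078 ± 0.047 (95% interval -0.032 to 0.188, adjusted p = 0.293), and it did not pass. The test of the difference between these responses gave -0.31 ± 0.067 with an adjusted p of 0.0361. That call was lost when any 1 of the 8 arrays was left out (adjusted p from 0.0510 to 0.112), while the difference itself stayed between -0.35 and -0.28 log2. It was also lost without the filter (adjusted p = 0.0687), with every probe set tested on its own (0.0561) and with array medians subtracted (0.0607).

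Between the siRNA arms, Sod2 was lower in siGiver cells at -0.26 ± 0.047 log2 in PBS (1.20-fold lower, adjusted p = 0.00445) and at -0.57 ± 0.047 under Ang II (1.49-fold lower, adjusted p = 8.40e-05). Under Ang II, 6.93% of all genes differed by more than Sod2 between the arms. Both calls and the rise in siNTC cells passed in all 16 alternatives run. The 5S ribosomal RNA control probe set had the same order of groups as Sod2, with log2 values of 7.62 and 7.64 on siGiver PBS arrays, 7.71 and 7.77 on siGiver Ang II arrays, 8.15 and 8.24 on siNTC PBS arrays, and 8.88 and 8.93 on siNTC Ang II arrays, and its part in the Sod2 result was not tested.

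**Figure D2:**
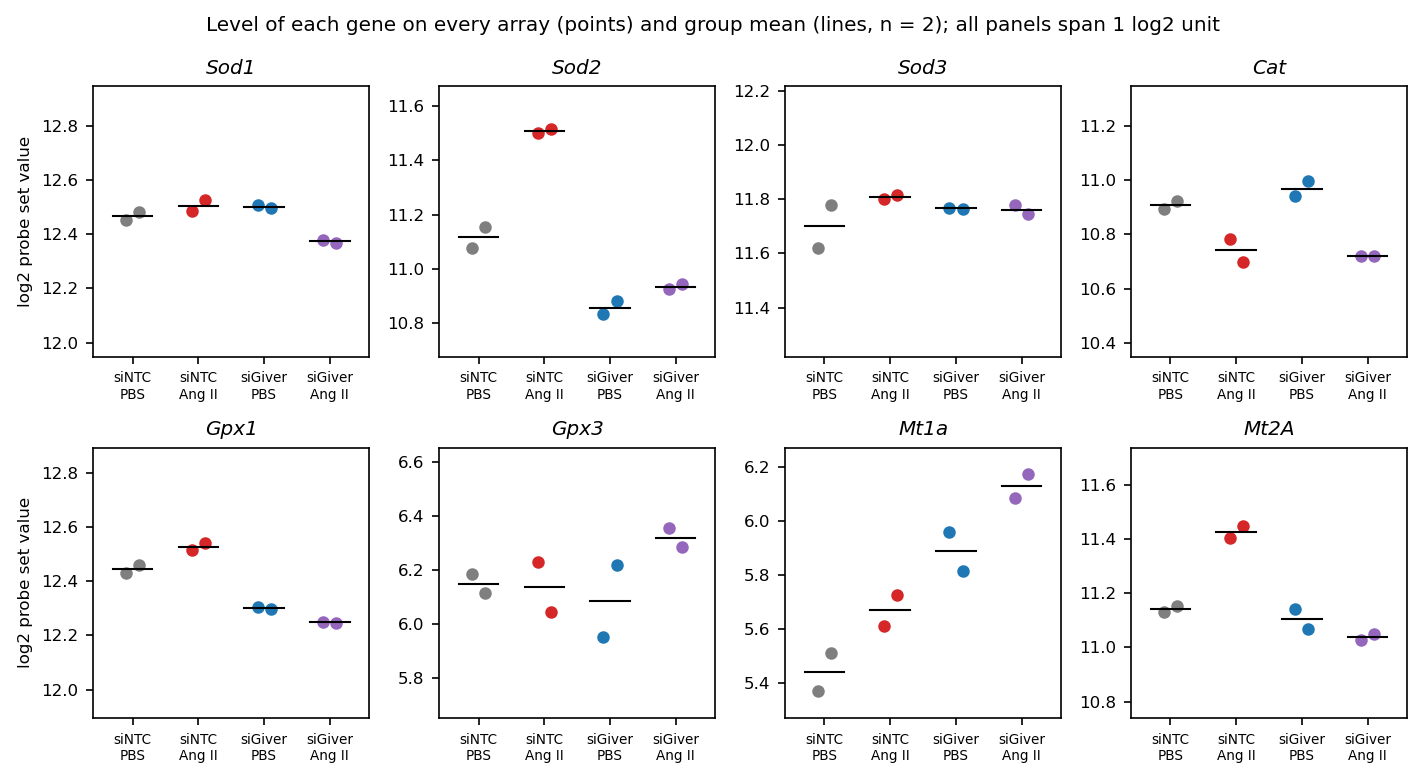
Log2 probe set value (vertical axis) of each of the 8 genes on all 8 arrays, by group, with each panel spanning 1 log2 unit. Points are arrays and lines are means of 2. In the Sod2 and Mt2A panels the siNTC Ang II arrays are the highest, and in the Mt1a panel the siGiver Ang II arrays are.

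Sod1, the cytosolic copper and zinc enzyme, varied little. Its arrays read log2 values of 12.45 and 12.48 in siNTC PBS, 12.48 and 12.53 in siNTC Ang II, 12.51 and 12.50 in siGiver PBS, and 12.38 and 12.37 in siGiver Ang II. The siGiver Ang II arrays were the lowest of the 8, and siGiver PBS and siNTC Ang II overlapped. Taken 2 against 2, siGiver Ang II was apart from siGiver PBS in 62.3% of all genes and from siNTC Ang II in 72.4%. Under Ang II, Sod1 was lower in siGiver than in siNTC cells by a log2 difference of -0.13 ± 0.042 (1.10-fold, adjusted p = 0.0385), a call that was lost in 11 of 16 alternatives, among them cyclic loess (adjusted p = 0.0728), no filter (0.0640) and each fit without 1 of the siNTC Ang II, siGiver PBS or siGiver Ang II arrays (0.0579 to 0.169). In PBS the difference between the arms was 0.034 (95% interval -0.065 to 0.133), and the Ang II difference in siNTC cells was 0.038 (-0.061 to 0.137), and neither passed. The Ang II difference in siGiver cells was -0.13 ± 0.042, with an adjusted p of 0.0811, and the difference between the responses was -0.17 (adjusted p = 0.158).

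Sod3, the extracellular dismutase, passed in none of the 5 comparisons, by limma's adjusted p or at an unadjusted p under 0.05, and in none of 16 alternatives of each. Its log2 values were 11.62 and 11.78 in siNTC PBS, 11.80 and 11.82 in siNTC Ang II, 11.77 and 11.77 in siGiver PBS, and 11.78 and 11.74 in siGiver Ang II. The first siNTC PBS array was the lowest of the 8. The 95% intervals of its 4 pairwise differences together ran from -0.183 to 0.243 log2.

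Cat was lower on the Ang II arrays than on the PBS arrays in both arms. The arrays gave log2 values of 10.89 and 10.92 in siNTC PBS against 10.78 and 10.70 in siNTC Ang II, and 10.94 and 11.00 in siGiver PBS against 10.72 and 10.72 in siGiver Ang II. The arrays with and without Ang II did not overlap in either arm, as in 52.7% of all genes in siNTC and 62.3% in siGiver cells. The Ang II groups of the 2 arms overlapped. In siGiver cells Cat fell by 0.25 on the log2 scale (-0.25 ± 0.049, 1.19-fold, adjusted p = 0.0143). That call was lost without siGiver PBS replicate 2 (adjusted p = 0.0723), siGiver Ang II replicate 1 (0.0643) or siGiver Ang II replicate 2 (0.0699). In siNTC cells the difference was -0.17 ± 0.049 with an adjusted p of 0.0915, and the difference between the responses was -0.081 (95% interval -0.241 to 0.079, adjusted p = 0.534). Between the siRNA arms Cat stood at 0.061 in PBS and -0.020 under Ang II, and neither passed.

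Gpx1, the intracellular glutathione peroxidase, was lower in siGiver cells. Its log2 values were 12.43 and 12.46 in siNTC PBS, 12.52 and 12.54 in siNTC Ang II, 12.30 and 12.30 in siGiver PBS, and 12.25 and 12.25 in siGiver Ang II. All 4 siGiver arrays lay below all 4 siNTC arrays. Taken 2 against 2, the siRNA arms were apart in 67.1% of all genes in PBS and in 72.4% under Ang II. Under Ang II the difference was -0.28 ± 0.042 log2 (1.21-fold lower, adjusted p = 0.00128) and passed in all 16 alternatives, whereas in PBS it was -0.14 ± 0.042 (1.10-fold lower, adjusted p = 0.0305) and was lost in 8 of 16. These were no filter (adjusted p = 0.0530), cyclic loess (0.0583) and each fit without 1 of the siNTC PBS, siGiver PBS or siGiver Ang II arrays (0.0520 to 0.108). The Ang II differences, 0.083 in siNTC and -0.051 in siGiver cells, did not pass, nor did the test between them (-0.13 ± 0.059, adjusted p = 0.231).

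Gpx3, the secreted glutathione peroxidase, was the least precise of the 8, with an SE of 0.096 log2 for a pairwise difference against 0.042 for Gpx1. On the log2 scale the arrays read 6.18 and 6.11 in siNTC PBS, 6.23 and 6.05 in siNTC Ang II, 5.95 and 6.22 in siGiver PBS, and 6.35 and 6.29 in siGiver Ang II. The siGiver Ang II arrays were the highest and the other 3 groups overlapped. As noted for Sod1, siGiver Ang II was apart from siGiver PBS in 62.3% of all genes and from siNTC Ang II in 72.4%. The Ang II difference in siGiver cells was 0.24 (95% interval 0.013 to 0.459) with an adjusted p of 0.134, and it passed without siGiver PBS replicate 2 (0.37, adjusted p = 0.0471). None of its 5 comparisons passed in the fit to all arrays.

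The 2 metallothionein genes neighbour each other on rat chromosome 19. Their upstream sequences are shown because under Ang II 1 gene was higher and the other lower in siGiver than in siNTC cells, and both sequences carry the metal response element core, the site through which the zinc sensor Mtf1 is known to act on metallothionein genes. Sequences are the 250 bases before each gene start from RefSeq on build GRCr8, written 5′ to 3′ on the gene's strand, which is minus for both. Capitals mark TGCACNC or TGCGCNC on either strand.

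Mt1a, chr19:10832976-10833225: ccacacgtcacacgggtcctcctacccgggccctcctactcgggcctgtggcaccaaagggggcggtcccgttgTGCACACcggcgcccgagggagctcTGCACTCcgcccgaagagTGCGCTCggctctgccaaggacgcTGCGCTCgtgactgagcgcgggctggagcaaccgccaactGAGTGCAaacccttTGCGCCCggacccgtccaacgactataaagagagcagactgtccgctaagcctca

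Mt2A, chr19:10838709-10838958: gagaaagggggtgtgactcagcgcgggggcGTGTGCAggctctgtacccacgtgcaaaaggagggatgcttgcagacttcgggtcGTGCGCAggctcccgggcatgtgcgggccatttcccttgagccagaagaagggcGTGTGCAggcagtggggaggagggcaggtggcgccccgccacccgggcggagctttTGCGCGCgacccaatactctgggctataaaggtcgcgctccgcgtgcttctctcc

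The Mt1a sequence held 6 matches to this core, 5 of them on the gene's strand, and the Mt2A sequence held 4, 1 of them on the gene's strand. Of 33469 rat promoter windows of the same length, 20.6% held at least 1, and of the 7 described genes with a RefSeq window only these 2 did. Both sequences also held TATAAA on the gene's strand, starting at positions -32 and -31 relative to the gene start, as did that of Sod1 (8.06% of all windows). The antioxidant response element core, searched as TGACNNNGC or TGAGNNNGC on either strand, was matched in 4 of the 7 (Sod2, Gpx1, Mt1a, Mt2A) and in 22.8% of all windows. A match is a string of letters and was not tested for binding.

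Mt2A, like Sod2, was highest in siNTC cells given Ang II. Its log2 values were 11.13 and 11.15 in siNTC PBS, 11.40 and 11.45 in siNTC Ang II, 11.14 and 11.07 in siGiver PBS, and 11.03 and 11.05 in siGiver Ang II. The siNTC Ang II arrays lay above all 6 others, and the 2 PBS groups overlapped. Taken 2 against 2, siNTC Ang II was apart from siNTC PBS in 52.7% of all genes and from siGiver Ang II in 72.4%. The share of all genes with 2 arrays beyond the 6 others was not computed. In siNTC cells Ang II raised Mt2A by 0.28 ± 0.047 log2 (1.22-fold, adjusted p = 0.0142), a call lost when any 1 of the 4 siNTC arrays was left out (adjusted p from 0.0580 to 0.101). In siGiver cells the difference was -0.065 (95% interval -0.175 to 0.044, adjusted p = 0.373).

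Unlike Sod2, Mt2A did not pass between the siRNA arms in PBS (-0.038, 95% interval -0.148 to 0.071, adjusted p = 0.576). Under Ang II it was lower in siGiver cells, at -0.39 ± 0.047 log2 (1.31-fold lower, adjusted p = 0.000477), and this passed in all 16 alternatives. The test between the Ang II responses gave -0.35 ± 0.066 with an adjusted p of 0.0239. It was lost in 7 of the 8 fits that left out 1 array (adjusted p from 0.0609 to 0.0877) and kept without siGiver PBS replicate 2. Among the markers of other cells, Cd14 had a like course, with group means of 8.38 in siNTC PBS, 8.61 in siNTC Ang II, 8.33 in siGiver PBS and 8.15 in siGiver Ang II. Cd14 differed between the arms under Ang II by -0.45 (adjusted p = 0.000404) and in the interaction by -0.40 (adjusted p = 0.0222), and Cd68 differed between the arms under Ang II by -0.60 (adjusted p = 0.0376). All 4 fibroblast markers fell with Ang II in siNTC cells, and 3 of 4 were higher in siGiver than in siNTC cells under Ang II. The part of these markers in the Mt2A and Sod2 results was not tested.

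Mt1a moved the other way between the siRNA arms. The log2 values were 5.37 and 5.51 in siNTC PBS, 5.61 and 5.73 in siNTC Ang II, 5.96 and 5.82 in siGiver PBS, and 6.08 and 6.17 in siGiver Ang II. The 4 groups did not overlap and followed in that order. Separation of 2 groups was common among all genes, at 52.7% to 72.4% in the 4 pairwise comparisons. Mt1a was higher in siGiver cells by 0.45 ± 0.076 log2 in PBS (1.36-fold, adjusted p = 0.00329) and by 0.46 ± 0.076 under Ang II (1.37-fold, adjusted p = 0.00212), and both calls passed in all 15 alternatives in which the gene was tested. It lay below the filter at the 50th percentile.

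The Ang II differences of Mt1a were 0.23 ± 0.076 in siNTC cells (adjusted p = 0.128) and 0.24 ± 0.076 in siGiver cells (adjusted p = 0.0704), and neither passed. With cyclic loess the siGiver value was 0.28 and passed (adjusted p = 0.0450). The test between the responses gave 0.010 (95% interval -0.240 to 0.260), against -0.35 for Mt2A, and the difference between the 2 genes was not tested.

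A second probe set lists Mt1 together with 2 other symbols and was therefore attributed to no gene. For this probe set the log2 values were 10.23 and 10.27 in siNTC PBS, 10.55 and 10.54 in siNTC Ang II, 10.95 and 10.96 in siGiver PBS, and 10.89 and 10.88 in siGiver Ang II. Like Mt1a it was higher in siGiver cells, by 0.71 ± 0.047 in PBS (adjusted p = 0.000147 in limma among 21729 probe sets) and by 0.34 ± 0.047 under Ang II (adjusted p = 0.00139). Unlike Mt1a it passed for Ang II in siNTC cells (0.30 ± 0.047, adjusted p = 0.0180) and for the interaction (-0.37 ± 0.067, adjusted p = 0.0316), as Mt2A did. Metallothionein genes are closely alike, and cross-hybridisation between their probe sets was not tested.

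**Figure D3:**
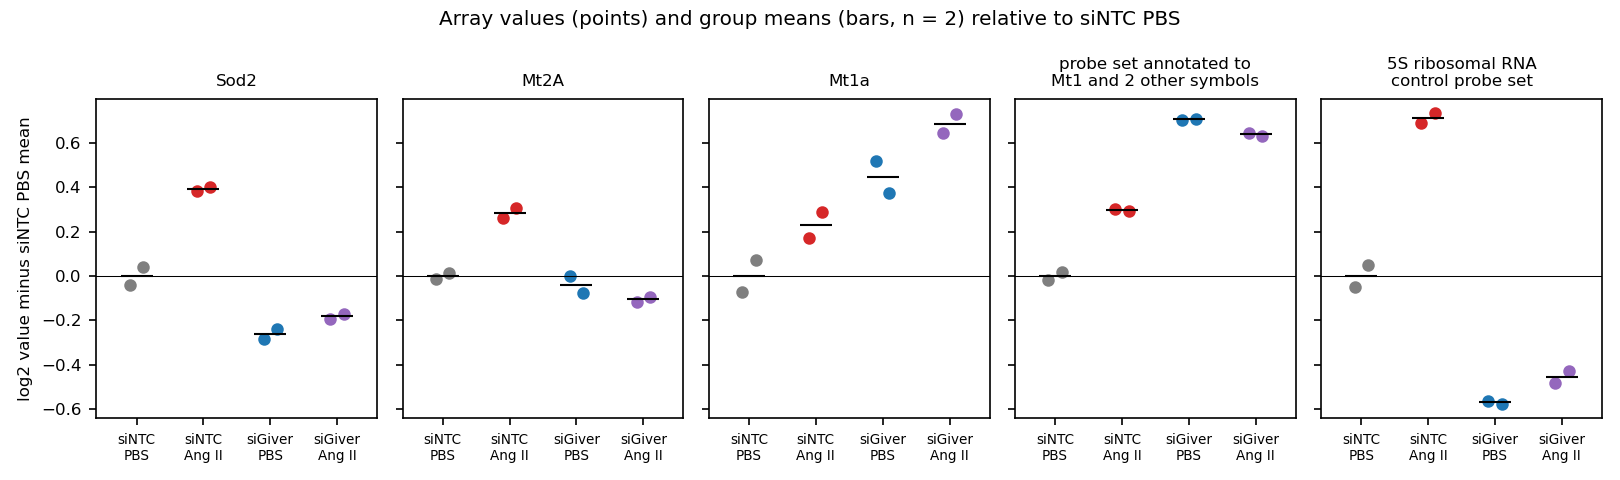
Log2 value of each array minus the siNTC PBS mean (vertical axis) for Sod2, Mt2A, Mt1a, the probe set that lists Mt1 with 2 other symbols, and the 5S ribosomal RNA control. Points are arrays and bars are means of 2. Sod2 and the control have the same order of groups, while Mt1a and the probe set with several symbols lie above 0 in all siGiver arrays.

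Genes with the closest course were sought for Mt1a and Sod2, whose group means spanned 0.69 and 0.65 log2, the widest of the 8, by Pearson's correlation over the 8 arrays among 1855 named genes spanning at least 0.5 log2. For Sod2 these were Lin37 (r = 0.995), Usp18 (0.994) and Stoml1 (0.987). Usp18, an interferon-induced protease, had group means of 10.76 in siNTC PBS, 11.42 in siNTC Ang II, 10.40 in siGiver PBS and 10.48 in siGiver Ang II. For Mt1a they were Abhd2 (0.989), Ramp2 (0.988) and Id1 (0.982). The 8 arrays form 4 groups, so high correlations rest largely on 4 means and are given as a description.

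Other genes of the same chemistry were called in both directions between the siRNA arms, as were genes in general. Of 9 further peroxidases and peroxiredoxins tested, 3 were lower and 2 higher in siGiver cells in PBS, and the same numbers under Ang II, which is 55.6% in each where 35.0% and 44.3% of all genes passed. Gpx4, which reduces lipid peroxides in membranes, was lower at -0.47 ± 0.049 log2 in PBS and -0.67 ± 0.049 under Ang II, larger differences than those of Gpx1. The peroxidasin gene Pxdn was lower at -0.45 and -0.30, the mitochondrial peroxiredoxin gene Prdx3 at -0.15 and -0.31, and Prdx4 and Prdx6 were higher at 0.31 and 0.31 in PBS and 0.27 and 0.35 under Ang II. With Ang II in siNTC cells Prdx5 rose by 0.20 and Pxdn fell by 0.22 on the log2 scale. In siGiver cells 0 of the 9 passed limma's adjusted threshold for Ang II, and 2 were lower and 0 higher at an unadjusted p under 0.05, with a smallest adjusted p of 0.0938 for Prdx4.

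Of 19 thioredoxin and glutathione recycling genes, 7 were higher and 5 lower in siGiver cells in PBS, and 4 higher and 5 lower under Ang II, or 63.2% and 47.4% against the 35.0% and 44.3% of all genes. Gclc, the rate-limiting enzyme of glutathione synthesis, was higher by 0.44 and 0.53, and the thioredoxin reductase gene Txnrd1 by 0.34 and 0.68. Among the lower genes, Glrx3 stood at -0.26 and -0.36. The glutathione synthetase gene Gss was lower in PBS at -0.38 and did not pass under Ang II (-0.014). The list median was 0.0572 in PBS and -0.0312 under Ang II, against -0.0047 and -0.0259 over all genes. Of 12 Nrf2-type antioxidant genes tested, some of which are also in the recycling list, 7 were higher and 1 lower in PBS, and 7 higher and 3 lower under Ang II (66.7% and 83.3%), with medians of 0.266 and 0.271. Of all genes, 35.0% and 44.3% passed in either direction, and 16.0% and 19.5% as higher. Nqo1, a quinone reductase, led at 0.85 ± 0.041 in PBS and stood at 0.59 under Ang II, and Hmox1 was higher by 0.41 and 0.36. Me1, the NADPH-forming malic enzyme and second by p in PBS, was lower at -0.52 and -0.45.

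**Figure D4:**
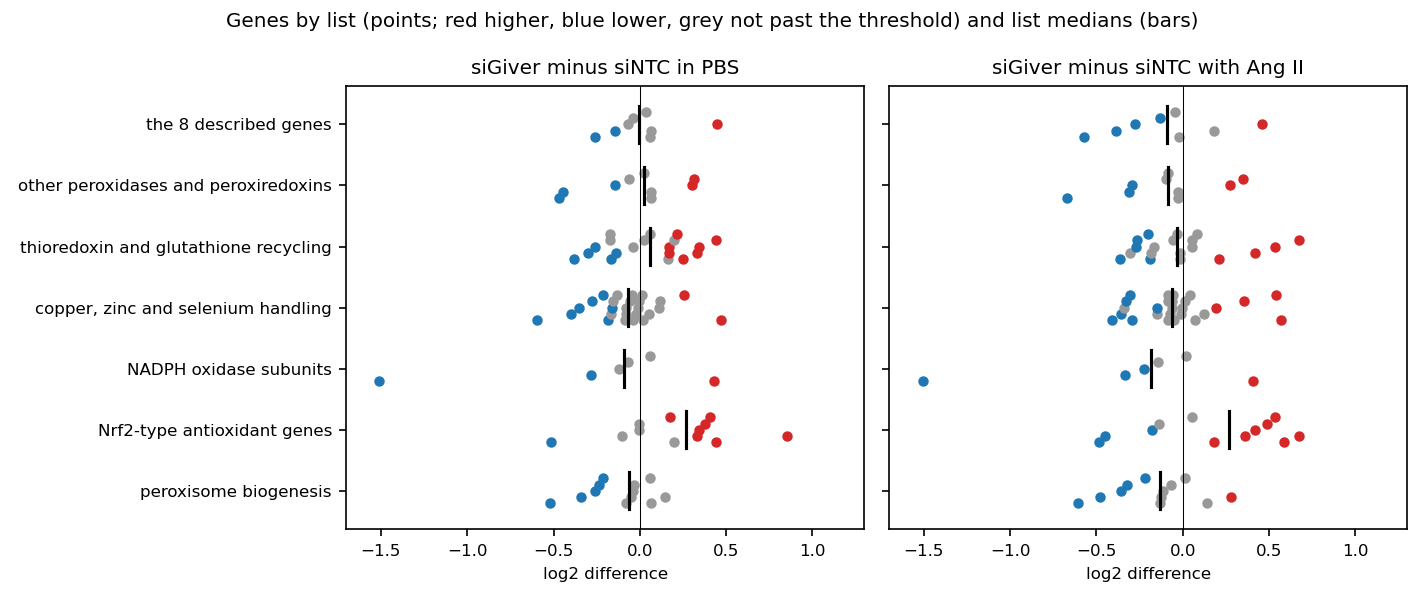
Log2 difference between siGiver and siNTC cells (horizontal axis) in PBS and under Ang II for the 8 described genes and for 6 lists of related genes. Each point is a gene, red or blue where it passed the adjusted threshold, and bars are list medians. The Nrf2-type list has its median at 0.266 and 0.271.

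Among 26 copper, zinc and selenium genes tested, 2 were higher and 7 lower in siGiver cells in PBS, and 4 higher and 6 lower under Ang II. These shares, 34.6% and 38.5%, were no larger than the 35.0% and 44.3% of all genes. Slc39a10, first by p in PBS, was lower at -0.60 and -0.29. Slc31a1, the copper importer, was higher by 0.47 and 0.57, while Slc31a2 was lower at -0.35 and -0.33. Atp7a was lower in PBS at -0.16 and did not pass under Ang II (-0.062). Secisbp2, which is needed to insert selenium into proteins such as Gpx1, was lower at -0.40 and -0.41. Of the other selenium genes, Sephs1 and Selenop were higher under Ang II (0.35 and 0.20) and did not pass in PBS. Sephs2, Sepsecs, Eefsec and Trnau1ap passed in neither comparison. The part of these genes in the Gpx1 result was not tested. The zinc exporter gene Slc30a1, a classical target of Mtf1 beside the metallothioneins, rose with Ang II in siNTC cells by 0.63 ± 0.12 (adjusted p = 0.0297), the only member of the list called higher there. In siGiver cells its difference was 0.44 ± 0.12 (adjusted p = 0.0519), and the test between the responses did not pass (-0.19, adjusted p = 0.579). Mtf1 itself stood at 0.10 with Ang II in siNTC cells (adjusted p = 0.313) and 0.098 in siGiver cells (0.252), and Mt3, a further metallothionein gene, at 0.063 and -0.0015, and none of these passed. Selenop, which carries selenium, fell in the same comparison by 0.30 on the log2 scale. Neither gene was among the 4 list members that rose with Ang II in siGiver cells, which were Slc39a10, Slc30a5, Slc30a4 and Slc39a13.

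Of 6 NADPH oxidase subunits tested, 1 was higher and 2 lower in siGiver cells in PBS (50% against 35.0% of all genes), and 1 higher and 3 lower under Ang II (66.7% against 44.3%). Nox1 was lower in siGiver cells at -1.51 ± 0.056 log2 in PBS and -1.51 under Ang II, and rose with Ang II by 0.44 in both arms. Nox4, which releases mainly hydrogen peroxide, was higher in siGiver cells by 0.43 and 0.41. In siNTC cells Sod2, Mt2A and Nox1 thus all rose with Ang II, and in siGiver cells Nox1 rose while Sod2 and Mt2A did not pass. The test between the responses did not pass for Nox1 (0.0042). It passed for Sod2 and Mt2A, but both calls, and the Mt2A rise in siNTC cells, were lost in some of the alternatives run. The response of Nox1 was not tested against those of Sod2 and Mt2A.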

How the data were processed

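The deposited values are log2 signals, 1 per probe set and array, from Affymetrix rat arrays hybridised with biotin-labelled RNA (5 ug per array, per the labels' protocols). Per the submitters' processing notes, RMA and Partek were used; no version was found in the labels. This method corrects background, applies quantile normalization and fits 1 value per probe set, so differences between arrays are relative to an equal overall distribution.

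Probe sets were named through GEO's array annotation, updated by gene identifier. Of 31099 probe sets, 57 are controls. Those with a mean below the 30th percentile of the others (4.81 log2) were left out, and the brightest probe set per symbol was kept, giving 11377 genes. Group means were estimated in limma 3.58.1 (R 4.3.3) from all 8 arrays together, leaving 4 residual degrees of freedom beside 3.53 prior ones. P-values were adjusted by Benjamini-Hochberg over all 11377 genes in each of 5 contrasts, with 0.05 as the threshold. Errors are SE of the fit and intervals are 95% intervals of single differences, not adjusted for the number of genes. The fit was also run on simulated data with independent noise and with differences added to a small part of the genes in a single group. Such data cannot show whether the spread between arrays here is technical, and they are not used to back any call.

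The 8 genes and all lists were chosen with earlier results of these data known. From each list up to 4 genes with the smallest p in a contrast were to be named. Some genes of the copper, zinc and selenium list, Mtf1 and Mt3 among them, were named outside this rule. The genes of closest course were the 3 best correlated with each of the 2 described genes of widest range. Alternatives are given in the closing section.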

Additional observations from a re-analysis of the deposited data

Results flagged for a closer look

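The Ang II response differed between siGiver and siNTC cells by limma's interaction test for Sod2 (-0.31 log2) and Mt2A (-0.35). These calls were lost in 11 (Sod2) and 7 (Mt2A) of the 16 alternatives run. Among the related genes 6 of 80 tested (7.5%) passed the interaction test, near the 6.21% of all genes. They were the thioredoxin inhibitor gene Txnip (-0.44), Txnrd1 (0.34), the glutathione synthetase gene Gss (0.37), the methionine sulfoxide reductase gene Msrb3 (0.25), the Nrf2 inhibitor gene Keap1 (-0.38) and Nqo1 (-0.27). Among markers of other cell types the test passed for Cd14 (-0.40) and the fibroblast marker Dcn (0.39). The probe set that lists Mt1 with 2 other symbols, which the comparisons by gene did not use, stood 0.71 above siNTC cells in siGiver cells given PBS, and its interaction was -0.37. With 2 arrays per group, no array could be tested as standing apart from its group.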

How the results depend on the processing

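No described gene changed direction while called, in any alternative run. The siRNA calls of Sod2 and Mt1a (in PBS and under Ang II) and of Gpx1 and Mt2A (under Ang II) passed in every alternative in which the gene was tested, as did the Sod2 rise in siNTC cells. Of the 8 genes, trended, robust moderation called 4 for Ang II in siNTC cells, 2 in siGiver cells and 4 for the interaction, among 1496, 2802 and 1490 of all genes, and so added Cat (adjusted p = 0.00539) and Gpx1 (0.0494) in siNTC cells, Sod1 (0.00150) in siGiver cells, and Sod1 (0.00579) and Gpx1 (0.0247) for the interaction. Cyclic loess called 2 for Ang II in siGiver cells. The interaction kept 1 of 8 without the filter, with every probe set on its own and with array medians subtracted. Over all genes, no filter gave 420 calls for Ang II in siNTC cells and 467 for the interaction, and the filter at the 50th percentile gave 1066 for Ang II in siNTC cells. Leaving out 1 array gave 1 to 2 of the 8 genes (226 to 526 of all genes) for Ang II in siNTC cells, 0 to 1 (866 to 1740) in siGiver cells, 2 to 3 (2768 to 3779) for siGiver in PBS, 4 to 5 (3952 to 5027) under Ang II and 0 to 1 (356 to 435) for the interaction, where the fits have fewer arrays. With array medians subtracted, 67.5% of the calls for Ang II in siGiver cells were higher, against 55.9% as deposited. The cause was not tested. Replicate numbers are shared between groups. The deviations of same-numbered arrays correlated between -0.173 and 0.0961, which cannot show whether such arrays share a culture or batch. With the replicate block, 2 of the 8 genes (548 of all genes) passed for Ang II in siNTC cells, 1 (1603) in siGiver cells, 3 (3799) for siGiver in PBS, 4 (4954) under Ang II and 2 (553) for the interaction, and the only call among the 8 genes it changed was that of Sod1 under Ang II (adjusted p = 0.0538). No background signal comes with the deposited values. Gpx3 and Mt1a have the largest SE of the 8 genes.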

Other observations

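Peroxisome biogenesis genes, whose products build the compartment that holds catalase, passed between the siRNA arms at shares near those of all genes. Of 12 tested, 5 were lower and 0 higher in PBS by limma's adjusted threshold (5 and 1 at an unadjusted p under 0.05), and 5 were lower and 1 higher under Ang II. These are 41.7% and 50% of the list, where 35.0% and 44.3% of all genes passed and lower calls also outnumbered higher ones. The list had medians of -0.0641 and -0.130 log2 against -0.0047 and -0.0259 over all genes. Pex19, which brings membrane proteins to peroxisomes, was lower at -0.52 ± 0.058 and -0.61 ± 0.058, and Pex7, an import receptor, at -0.34 and -0.48. For Ang II 0 of the 12 passed in limma in either arm, with smallest adjusted p of 0.124 in siNTC cells (Pex16) and 0.0512 in siGiver cells (Pex13), and at an unadjusted p under 0.05 there were 1 higher and 0 lower in siNTC cells and 2 higher and 2 lower in siGiver cells. Cat itself did not pass between the siRNA arms.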
